A study of Mus musculus with 2 samples.

Results

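The genes described here are 7 products and regulators of surface mucous (pit) cells that are neither mucins, trefoil factors nor gastrokines: Agr2, Psca, Capn8, Capn9, Foxq1, Spdef and Tspan1. They were chosen by name, with earlier results of these data known. All 7 were found among the 43346 Ensembl genes of both deposited gene tables. RNA of whole mouse stomach at embryonic day 16.5 was sequenced in 2 libraries, called replicates 1 and 2 in the labels. Each library is a pool of stomachs of healthy male and female embryos of strain B6NCrl with no treatment; the labels give 41 embryos for replicate 2 and no number for replicate 1. There is 1 group and no condition to compare, so the data give the level of each gene and the distance between the pools. Levels are in TPM (the portion of all transcripts that a gene makes up, with its length taken into account), shown as mean ± SD with n = 2 libraries. The libraries held 44567153 and 25677702 expected counts (the authors' estimated reads), of which the 7 genes took 0.0447% and 0.0821% of those assigned to genes.

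Surface mucous cells line the glandular stomach and its pits, and they secrete the mucus and bicarbonate layer that shields the wall from acid. Agr2 encodes an endoplasmic reticulum protein of the disulfide isomerase family that helps mucins fold. Psca encodes a small cell surface protein of the Ly6 family, held by a lipid anchor, and Tspan1 a membrane-spanning tetraspanin. Capn8 and Capn9 encode calcium-dependent proteases, the stomach calpains, whose products act as a pair in surface mucous cells. Spdef, an Ets factor, drives maturation of mucus-secreting cells, and Foxq1, a forkhead factor, is required for Muc5ac expression in the stomach surface.

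Promoter sequence is shown for the 5 genes with an entry in the RefSeq table (GRCm38.p6). Psca and Foxq1 had no entry, and the windows were not chosen by any level or ratio. The windows are the 200 bases before the RefSeq start site, written 5′ to 3′ on the gene's strand. They lie at chr12:35992725-35992924 for Agr2 (plus strand), chr4:116167599-116167798 for Tspan1 (minus), chr17:27728952-27729151 for Spdef (minus), chr1:182564807-182565006 for Capn8 (plus) and chr8:124575911-124576110 for Capn9 (plus). Capitals mark a match to any of the 7 motifs searched.
Agr2: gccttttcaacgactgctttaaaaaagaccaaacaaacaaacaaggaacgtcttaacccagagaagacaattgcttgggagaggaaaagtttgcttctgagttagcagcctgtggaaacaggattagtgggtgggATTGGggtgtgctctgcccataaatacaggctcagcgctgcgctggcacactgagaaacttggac
Tspan1: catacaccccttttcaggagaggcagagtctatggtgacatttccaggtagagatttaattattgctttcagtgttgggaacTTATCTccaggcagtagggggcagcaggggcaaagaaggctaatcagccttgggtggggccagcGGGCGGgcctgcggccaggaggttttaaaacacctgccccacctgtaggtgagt
Spdef: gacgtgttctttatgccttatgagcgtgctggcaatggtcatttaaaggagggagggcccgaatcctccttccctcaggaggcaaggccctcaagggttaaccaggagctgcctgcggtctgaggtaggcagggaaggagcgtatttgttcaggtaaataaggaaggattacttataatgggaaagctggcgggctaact
Capn8: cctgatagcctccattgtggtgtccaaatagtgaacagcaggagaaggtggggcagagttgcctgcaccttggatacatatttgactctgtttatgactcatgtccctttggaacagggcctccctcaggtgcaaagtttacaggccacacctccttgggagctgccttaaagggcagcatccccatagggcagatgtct
Capn9: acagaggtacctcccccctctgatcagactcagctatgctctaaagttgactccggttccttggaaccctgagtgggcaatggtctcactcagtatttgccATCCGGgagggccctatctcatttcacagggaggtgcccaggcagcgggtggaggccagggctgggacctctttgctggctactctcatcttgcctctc

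The 7 motifs were searched as exact letters on both strands, over 250 bases before and 50 after the start. The 5 windows held 4 matches, none overlapping another. Tspan1 had a GC box (GGGCGG, bound by Sp and Klf factors) 54 bases before its start and, in reverse, a GATA motif (AGATAA) beginning 118 bases before it. Agr2 had a reversed CCAAT box beginning 65 bases before its start. Capn9 had a reversed Ets core, CCGGAT, beginning 99 bases before its start. Over all 32851 RefSeq windows of the same length the shares with a match were 35.7% for the GC box, 11.2% for the GATA motif, 37.4% for CCAAT and 6.04% for CCGGAT. The other motifs, which none of the 5 windows held, were present in 13.6% (TATAAA), 14.9% (CCGGAA) and 3.65% (TGTTTAC, a forkhead motif) of windows. A match is a stretch of letters and was not tested for binding.

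Marker sums of several tissues differed between the pools, and their part in the ratios given here was not tested. The sum over 8 skeletal muscle markers was 2276 TPM in replicate 1 and 190 TPM in replicate 2. Sums over squamous forestomach markers were 6110 and 9905 TPM, over other surface mucous markers 859 and 1327 TPM, and over 9 pancreatic acinar markers 6972 and 7798 TPM. The acinar genes did not share a direction. By the scaled log2 ratio described below, 4 of them were lower in replicate 1 and 5 higher, with a median of 0.03. Of 6 airway markers, 0 reached 1 TPM in both libraries. In whole tissue, fewer cells of a type and less RNA per cell cannot be told apart. Several of the 7 genes are also known from other epithelia, so a level here belongs to the organ and not to one cell type.

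Psca was the most abundant of the 7 genes and Capn9 the least, and the order was the same in both libraries. Of the 7 genes, 6 reached 1 TPM in both libraries, against 64.3% of protein-coding genes. From highest to lowest the order was Psca, Agr2, Tspan1, Spdef, Foxq1, Capn8 and Capn9. Each of the 6 pairs of neighbours in this order was further apart on the log2(TPM + 0.1) scale than the larger of their SDs. The narrowest step was Spdef over Foxq1, 0.76 against an SD of 0.39. The widest was Capn8 over Capn9, 3.21 against 0.41. With 2 libraries an exact sign-flip test cannot go below a two-sided p of 0.5, so no step was tested.

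**Figure D1:**
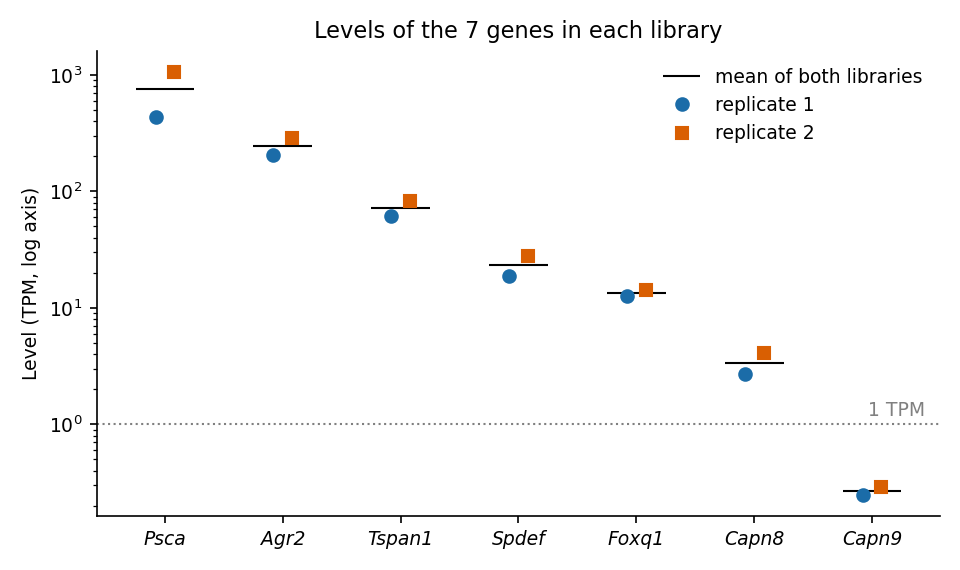
Level of each gene in TPM on a log axis, with circles for replicate 1, squares for replicate 2 and a line at their mean. Replicate 2 lies above replicate 1 for each gene, Psca has the widest gap (437 and 1059 TPM), and Capn9 alone lies under 1 TPM.

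Among the membrane and secretory products, Psca (ENSMUSG00000022598; chromosome 15, 74714839 to 74717069, GRCm38) stood at 437 TPM in replicate 1 and 1059 TPM in replicate 2, a mean of 748 ± 439.8. Replicate 2 was the higher by 2.42-fold in TPM, and Psca exceeded 98.7% of protein-coding genes in replicate 1 and 99.6% in replicate 2. The gene has 1 annotated transcript, so no split between forms enters these values. Its closest protein-coding neighbours differed from it in level: Jrk, 5304 bases away, stood at 4.27 and 4.58 TPM, and Them6, 4135 bases away, at 0.37 and 0.17 TPM. Neither neighbour shared its high level.

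Of 33 listed genes of the Ly6 and uPAR family, 32 were matched and 25 reached 1 TPM in both libraries. Psca had the highest mean of the list, but in replicate 1 it was level with Ly6d, a marker of squamous epithelium (437 against 438 TPM), and only in replicate 2 above it (1059 against 675 TPM). Ly6e at 184 ± 23.4 and Lypd8 at 181 ± 11.6 TPM followed, and Ly6l and Gml2 were listed at 0. Psca made up 26.4% of the list's summed TPM in replicate 1 and 38.3% in replicate 2.

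Agr2 (ENSMUSG00000020581; chromosome 12, 35992907 to 36004087) stood at 207 TPM in replicate 1 and 285 TPM in replicate 2, a mean of 246 ± 55.1. In the list of 16 disulfide isomerase family genes it had the fourth highest mean, after P4hb (917 ± 115 TPM), Pdia3 (738 ± 3.16) and Pdia6 (542 ± 9.01), which serve secretory proteins in general. That rank was not shared by the libraries: Pdia4 (222 TPM) and Txndc5 (210.2 TPM) were above Agr2 in replicate 1, and both were below it in replicate 2 (252 and 226 TPM). Agr3, its close relative 43171 bases away on the same strand, was the lowest of the list at 0.40 and 1.20 TPM, from 7 and 15 expected counts. The neighbour on the other side, Tspan13, stood at 103 and 109 TPM.

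Tspan1 (ENSMUSG00000028699; chromosome 4, 116161869 to 116167601) stood at 61.2 and 82.9 TPM, a mean of 72.1 ± 15.4. It held rank 13 of 31 listed tetraspanins. The broadly expressed Cd63 (769 ± 6.65 TPM), Cd81 (545 ± 40.2), Cd9 (399 ± 45.4) and Tspan3 (335 ± 20.0) led that list, and Tspan10 and Prph2 were listed at 0. Its nearest neighbours were Pomgnt1, 2020 bases away at 40.0 and 42.0 TPM, and 1700042G07Rik, listed at 0.

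The stomach calpains were the lowest of the set. Capn8 (ENSMUSG00000038599; chromosome 1, 182565007 to 182632352) stood at 2.69 and 4.08 TPM, a mean of 3.38 ± 0.983, from 195 and 165 expected counts. Capn9 (ENSMUSG00000031981; chromosome 8, 124576111 to 124618731) stood at 0.25 and 0.29 TPM, a mean of 0.27 ± 0.0283, from 17 and 11 expected counts. These values lay above the 0.0441 and 0.0791 TPM that 3 counts would give for this gene in replicates 1 and 2. The posterior mean TPM of Capn9 in the authors' deposited table was higher, 0.70 and 1.08, with deposited intervals of 0.228 to 1.34 and 0.267 to 2.22, so its level is loosely fixed.

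The general calpain system was far more abundant. Capn2, a catalytic subunit found in most tissues, stood at 110 ± 9.55 TPM, and its gene is the neighbour of Capn8, 47399 bases away on the opposite strand. The shared small subunit gene Capns1 stood at 79.9 ± 7.15, Capn6 at 75.5 ± 12.9 and the calpain inhibitor gene Cast at 55.4 ± 6.65 TPM. Capn8 and Capn9 held ranks 11 and 15 of 16 listed genes, with Capn12 the lowest at 0.245 ± 0.0212 TPM. Of the other neighbours, Ccdc185 beside Capn8 was listed at 0, and Agt and 2310022B05Rik beside Capn9 stood at 16.2 and 19.0 TPM and at 19.1 and 19.6 TPM.

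Both regulators were detected at moderate levels. Spdef (ENSMUSG00000024215; chromosome 17, 27714352 to 27728955) stood at 18.8 and 27.8 TPM, a mean of 23.3 ± 6.30. Foxq1 (ENSMUSG00000038415; chromosome 13, 31556134 to 31560976) stood at 12.7 and 14.2 TPM, a mean of 13.5 ± 1.05. By TPM ratio, 1.12-fold, this was the closest pair of values among the genes above 1 TPM. The gene A530084C06Rik overlaps Foxq1 on the opposite strand and stood at 0.61 and 0.65 TPM. Whether reads were counted by strand is not given in the sources used here, so reads of this pair may not be told apart.

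Among the listed genes only, Spdef was one of the lower Ets genes and Foxq1 one of the higher forkhead genes. The Ets list was a chosen set and not the whole family. Among 9 Ets factors the epithelial gene Elf3 led at 154 ± 33.0 TPM, followed by Ets2 (51.3 ± 4.19), Elf2 (47.5 ± 0.983) and the epithelial gene Ehf (37.5 ± 8.46), with Spdef at rank 6 and Elf5 lowest at 3.30 ± 0.919. Among 35 forkhead factors Foxq1 held rank 9. The list was led by Foxp1 (90.2 ± 2.96 TPM), the mesenchymal factor Foxf1 (81.9 ± 0.537), Foxn3 (45.2 ± 1.98) and the endodermal factor Foxa3 (28.9 ± 3.34), and Foxb1 and Foxl2 were listed at 0. Foxf2, the neighbour of Foxq1 64840 bases away, stood at 9.64 and 10.2 TPM, and Gm5447 on its other side at 0.06 TPM in replicate 1 and 0 in replicate 2. Pacsin1, 2870 bases from Spdef, stood at 0.92 and 1.19 TPM, and D17Wsu92e on its other side at 17.0 and 19.6 TPM.

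**Figure D2:**
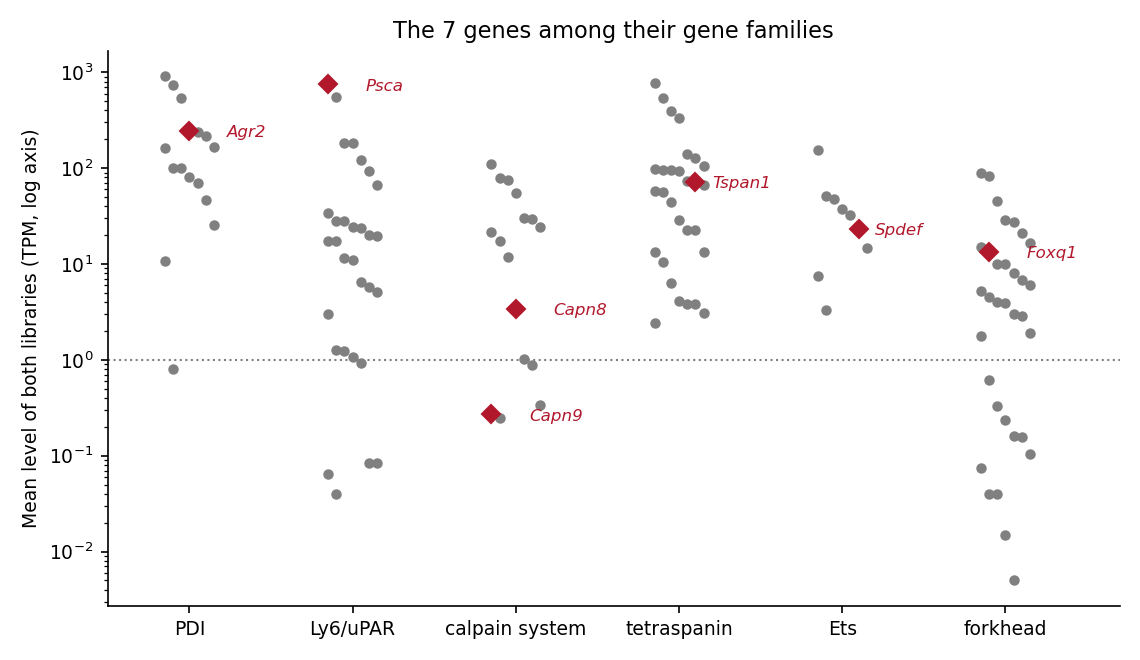
Mean TPM of both libraries on a log axis for the listed genes of 6 families, with diamonds for the 7 genes, grey circles for their relatives and a dotted line at 1 TPM; genes listed at 0 in both libraries are not drawn. Psca tops its family at 748 TPM, Agr2 lies among the general isomerases at 246 TPM, and Capn9 lies near the bottom of the calpain system at 0.27 TPM.

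Most genes of secretory differentiation and mucus synthesis were also detected. Of 26 listed genes, Spdef among them, 23 reached 1 TPM in both libraries, against 64.3% of protein-coding genes. The chaperone gene Hspa5 (799 ± 52.8 TPM) and the unfolded protein response factor Xbp1 (200 ± 1.09 TPM) were highest, followed by the glycosyltransferase genes St3gal4 (37.4 ± 0.884) and Galnt7 (35.4 ± 4.36), and B3gnt6 was lowest at 0.03 ± 0.0283. Of the other surface mucous markers, Tff1 (434 ± 137), Cldn18 (363 ± 101), Muc1 (114 ± 33.1) and Tff2 (95.5 ± 21.5) led, and Muc5ac, the surface mucin, was lowest at 2.34 ± 0.481 TPM. Each of the 7 genes except Capn9 stood above Muc5ac (2 TPM in replicate 1 and 2.68 TPM in replicate 2) in each library. Intestinal goblet cells also express Agr2 and Spdef, and 7 of 8 listed goblet markers reached 1 TPM in both libraries. They were led by Tff3 (98.1 ± 13.5 TPM), Fcgbp (44.0 ± 9.81), Zg16 (38.1 ± 19.8) and Spink4 (31.5 ± 1.68), while the intestinal mucin gene Muc2 stood at 2.63 and 2.06 TPM and Retnlb was listed at 0. The part of such cells in the Agr2 and Spdef levels was not tested.

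Transcript tables showed 1 main form for Agr2 and several forms for Tspan1, Spdef and Capn8. Agr2-201, the protein-coding form, carried 98.7% ± 0.113 of the gene's TPM. For Tspan1 the longer Tspan1-201 carried 54.1% ± 0.983 and the shorter protein-coding Tspan1-202 44.3% ± 0.544, nearly the same split in both pools. By expected counts, which do not correct for length, Tspan1-201 took 75.2% and 74.1%. Because the forms overlap in sequence, reads were divided among them by estimation.

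More Capn8 was assigned to both forms of 10 exons together than to the full form of 21 exons. Capn8-202, annotated as protein-coding, and Capn8-204, a processed transcript, span the same coordinates (182565007 to 182606526) at the same length of 2483 bases. They received the same TPM as each other, 0.96 in replicate 1 and 1.34 in replicate 2, so the estimate did not separate them. Together these forms carried 71.7% of Capn8 TPM in replicate 1 and 65.9% in replicate 2 (68.8% ± 4.10), and the full-length Capn8-201 carried 28.3% and 34.1%. The 165 to 195 counts behind these shares are few: the exact 95% interval of the count share of Capn8-201 ran from 21.5% to 34.5% in replicate 1 and from 26.2% to 41.1% in replicate 2. Intervals cover counting error only and leave out the error of assigning reads to forms. All Capn9 counts were assigned to Capn9-201, but in the authors' deposited table that form carried only 37.0% and 28.2% of the posterior mean TPM.

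A retained-intron form of Spdef took a larger share in replicate 2. Spdef-203, which covers the 3′ part of the gene (27714451 to 27717719), carried 8.34% of Spdef TPM in replicate 1 and 21.4% in replicate 2. By expected counts it took 3.87% (exact 95% interval 2.69% to 5.25%) and 10.7% (8.56% to 13.2%), and these counting intervals did not overlap. The intervals treat estimated counts as observed ones and leave out the error of assigning reads to forms. How often such intervals fail to overlap for other genes was not tested. The protein-coding Spdef-201 carried 90.2% and 76.8% of TPM. Among 4772 genes with a retained-intron form and at least 200 expected counts in each library, 2.83% had a retained-intron share at least 10 percentage points higher in replicate 2, and 2.26% one at least 10 points lower. The median share over those genes was 8.18% and 8.28%, so the Spdef difference went with no shift of that median. This comparison was chosen after the Spdef values were seen, and each side is 1 library. The retained-intron forms of Agr2 and Tspan1 stayed at 1.26% and 1.42% and at 1.31% and 1.93%. The deposited effective length of Spdef was 1629 and 1507 bases, and the libraries differed by 1.47-fold in TPM and by 1.33-fold in scaled counts.

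**Figure D3:**
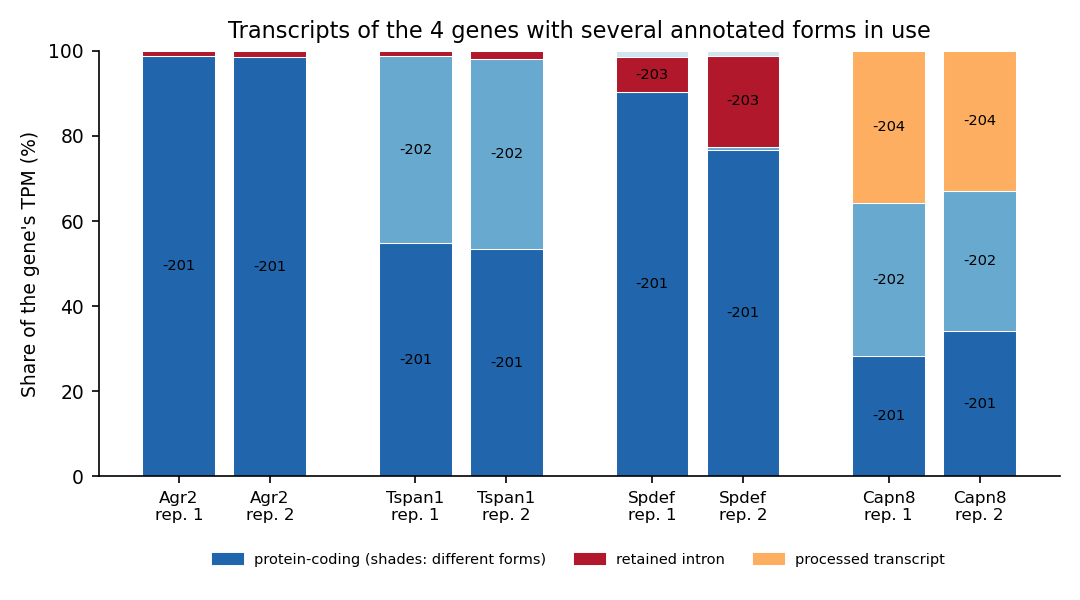
Share of each gene's TPM by annotated transcript in both libraries, for Agr2, Tspan1, Spdef and Capn8; blue shades are protein-coding forms, red is a retained intron and orange a processed transcript, and forms of 5% or more carry their number. The red Spdef-203 segment is 8.34% in replicate 1 and 21.4% in replicate 2, and Capn8-201 holds less of Capn8 than Capn8-202 and Capn8-204 summed, 28.3% and 34.1%.

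Between the pools all 7 genes had lower TPM in replicate 1, and Psca differed most. Ratios are log2 of replicate 1 over replicate 2 from rounded expected counts scaled by TMM, a method that sets the bulk of genes equal. All 7 genes passed the low-count filter, and 7 of 7 had a ratio under 0, against 49.6% of the 17763 genes past it. Relative to the sum of 4 genes of the simple epithelium list (Epcam, Cdh1, Krt8 and Krt18), 5 of 7 did, against 14.3% of the same genes. On that scale Foxq1 and Capn9 lay above 0. The median ratio of the 7 genes was -0.41 and that of all genes past the filter 0.0021. Psca alone was more than 2-fold lower, against 2.34% of all genes, but 3 of the 7 were with spike-in scaling (7.41% of all genes) and 0 relative to the epithelial genes (1.64%). By TMM 0 of the 7 were more than 2-fold higher, against 1.24%. Each side is 1 library, so no p-value was computed.

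Psca had a ratio of -1.24 (counting interval -1.28 to -1.20), a 2.36-fold difference, and 1.68% of the genes past the filter had a lower ratio. Among the 1570 protein-coding genes at a mean of 100 TPM or more, 7 were more than 2-fold lower in replicate 1: Ftl1-ps1, Psca, Sprr3, Rpl10-ps3, Crct1, Sprr1a and Arg1, named after their values were seen. Sprr3 and Sprr1a, genes of the squamous cornified envelope, had ratios of -1.24 and -1.03. The gastrokine genes Gkn1 and Gkn2 of surface mucous cells had ratios of -1.76 and -1.64. In the Ly6 and uPAR list 4 of 25 genes were more than 2-fold lower, against 2.34% of all genes past the filter. These were Lypd5 (-1.71), Psca, Slurp1 (-1.21) and Ly6g6c (-1.13), of which all but Psca were named after their values were seen. Genes with ratios close to or below that of Psca thus included some of the squamous and some of the surface mucous list. Zg16 of the intestinal goblet list had a ratio of -1.08 and was named after its value was seen. The part of any of these tissues in the Psca difference was not tested.

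The other genes differed less. Capn8 had a ratio of -0.56 (counting interval -0.87 to -0.25), Agr2 -0.43 (-0.49 to -0.36), Spdef -0.41 (-0.55 to -0.27) and Tspan1 -0.39 (-0.47 to -0.30). For Foxq1 the ratio was -0.12 with a counting interval of -0.27 to 0.02, and for Capn9 -0.15 with an interval of -1.35 to 1.07. Both intervals include 0; that of Capn9 is wide, with 17 and 11 counts, and that of Foxq1 narrow around a small ratio.

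Markers of both stomach epithelia were lower in replicate 1 beside the 7 genes. All 9 of 9 other surface mucous markers had a ratio under 0, with a median of -0.58, as had 15 of 15 squamous markers with a median of -0.57. Over all genes past the filter, 49.6% had a ratio under 0. The simple epithelium list stood at -0.32 (9 of 10 under 0), the secretory and mucus factors without Spdef at -0.08, acinar pancreas at 0.03 and mesenchyme and smooth muscle at 0.0026. Within the secretory list, here with Spdef included, 17 of 25 genes had a ratio under 0 and 8 above it. The list ran from Gcnt3 at -0.78 to Atoh1 at 1.08, both named after their values were seen. Its most abundant genes lay near 0: Hspa5 at -0.07, Xbp1 at 0.04, St3gal4 at 0.08 and Galnt7 at -0.21. The intestinal goblet list had a median of -0.25, with 5 of 7 genes under 0. Skeletal muscle markers, not drawn in the figure, went the other way with a median of 4.57. All 8 of 8 were more than 2-fold higher in replicate 1, against 1.24% of all genes. The part of epithelial content in these ratios was not tested.

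**Figure D4:**
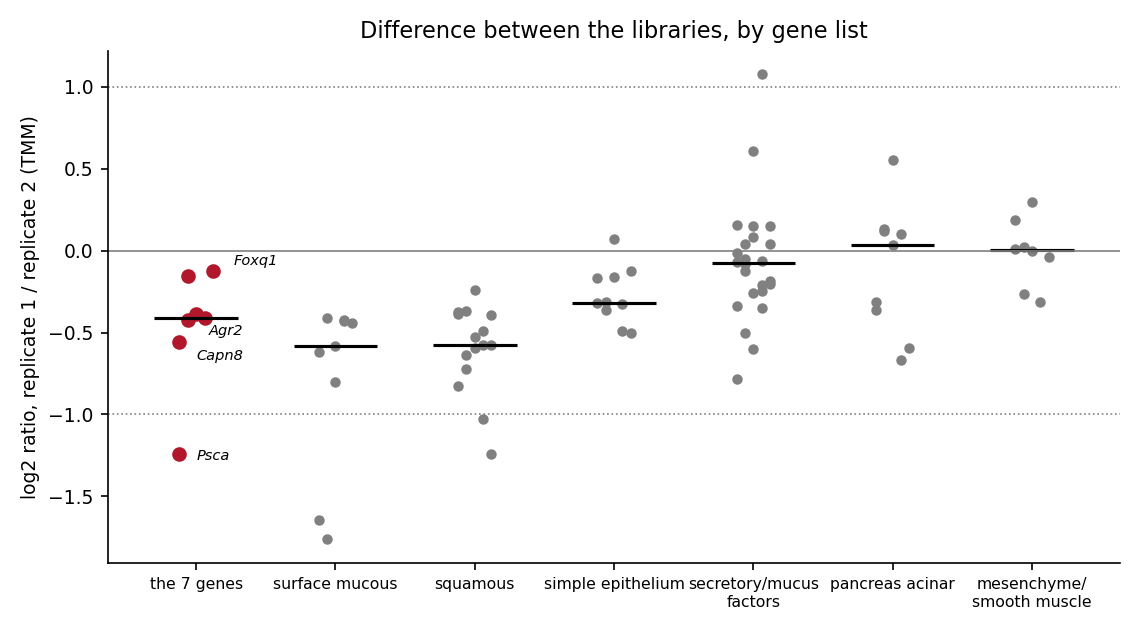
Log2 ratio of replicate 1 over replicate 2 (TMM) for the 7 genes (red) and for marker lists without them (grey); a bar marks each list's median and dotted lines mark 2-fold. The 7 genes have a median of -0.41, between the simple epithelium (-0.32) and surface mucous (-0.58) medians, with Psca at -1.24 apart from the other 6.

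Each gene was also set over the summed TPM of Epcam, Cdh1, Krt8 and Krt18, 4 genes of the simple epithelium list. The sum was 1920 TPM in replicate 1 and 2362 TPM in replicate 2. The simple epithelium keratins Krt8 (1017 and 1302 TPM) and Krt18 (458 and 524 TPM) weigh heavily in it. No gene of the squamous list is part of it, so it does not stand for all epithelium. Psca amounted to 228 and 449 per 1000 of that sum, a log2 ratio of -0.98. Agr2 amounted to 108 and 121 per 1000 (-0.16), Tspan1 to 31.9 and 35.1 (-0.14), Spdef to 9.81 and 11.7 (-0.26) and Capn8 to 1.40 and 1.73 (-0.28). Foxq1, at 6.63 and 6.02 per 1000, and Capn9, at 0.130 and 0.123, had ratios of 0.14 and 0.14. On this scale the median of the 7 genes was -0.16. The sum itself had a log2 ratio of -0.30, which is subtracted from the TPM ratio of every gene alike, so the change of sign for Foxq1 and Capn9 is set by that constant.

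**Figure D5:**
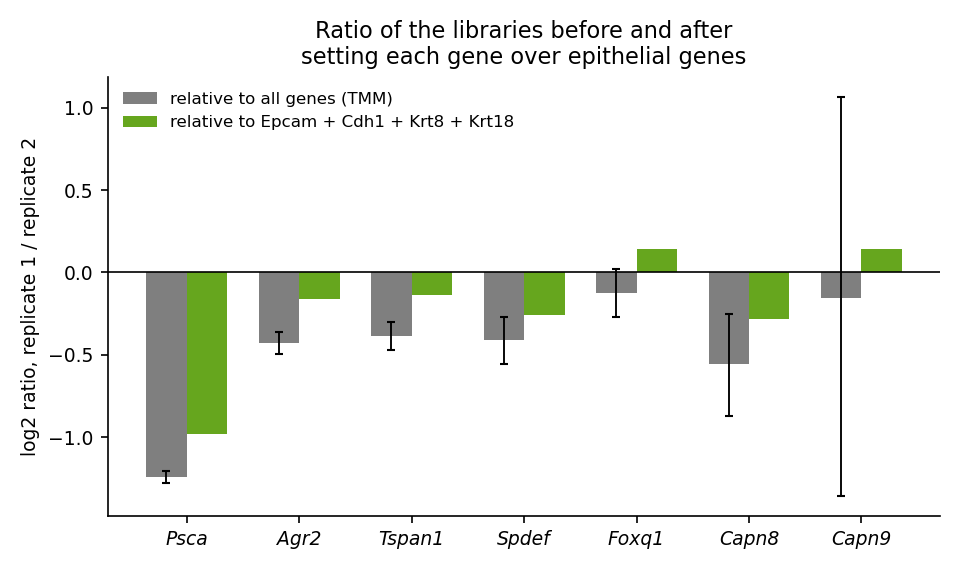
Log2 ratio of replicate 1 over replicate 2 for each gene, relative to all genes (grey, TMM; error bars are 95% counting intervals) and relative to the summed TPM of Epcam, Cdh1, Krt8 and Krt18 (green, no error shown). Psca stays at -0.98 over the epithelial sum, the next lowest is Capn8 at -0.28, and Foxq1 and Capn9 lie at 0.14.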

How the data were processed

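Both libraries came with gene and transcript tables, in which the authors deposited expected counts, their estimate of the reads of each feature. TPM and FPKM were deposited by the authors beside them, as were posterior mean TPM and, in the transcript tables, the percent of a gene's TPM in each form. The build was mm10 with annotation M4, per the labels and a deposited text file. Not given in the sources used here were the aligner, the quantifier and the strand setting. Per the labels, 10 ng of RNA over 200 nt entered each library, with ERCC spike-ins. The labels call the libraries biological replicates.

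Symbols and gene positions came from GENCODE M21, on GRCm38. Promoters came from RefSeq (GRCm38.p6), with an entry for 5 of the 7 genes. Features with numeric identifiers and spike-ins stayed out of library sizes. With edgeR 4.0.16 in R 4.3.3, rounded expected counts went through filterByExpr as 1 group and TMM scaling, with a prior count of 2; DESeq2 1.42.0 size factors were an alternative. Counting intervals are exact binomial 95% intervals. The ratio step was checked on simulated counts. Other steps used Python 3.11.15, pandas 2.3.3, scipy 1.17.1 and matplotlib 3.10.9.

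The members and gene lists were chosen with earlier results of these data known. Named were the 7 genes, the 4 highest and the lowest of each family and of the secretory list, the nearest protein-coding gene on each side, and transcripts of 5% or more of a gene. Single genes of the marker lists, Pdia4 and Txndc5 were named after their values were seen. With 2 libraries no likeness of pattern could be measured.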

Additional observations from a re-analysis of the deposited data

Results flagged for a closer look

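Reads were also assigned to features that carry only a number as identifier and that no comparison used. Their total was 74.99 expected counts for replicate 1, and for replicate 2 it was 27.0. The limit of 3 counts for a feature seen 0 times holds for a single feature, whereas these totals are summed over 26248 features. The totals therefore do not show whether any single feature passed that limit. They bear on none of the 7 genes.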

How the results depend on the processing

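Scaling by spike-ins moved the median ratio of all genes past the filter by -0.57; it gave 3 of the 7 genes more than 2-fold apart and a median of -0.99. Relative to the epithelial sum, 0 of the 7 passed 2-fold and the median was -0.16. The count of genes past 2-fold stayed at 1 with DESeq2 size factors, a prior count of 0.5, no filter, unscaled TPM, FPKM and posterior mean TPM. In these settings the median ratio, -0.41 in the main setting, ran from -0.53 with posterior mean TPM to -0.40 with no filter. Across these 8 alternatives the Psca ratio ran from -1.82 to -0.98. The count of 6 genes at 1 TPM was 6 without replicate 1, 6 without replicate 2 and 5 at a threshold of 5 TPM. The 6 separated neighbours remained 6 with a pseudocount of 1, FPKM and posterior mean TPM. Capn8-202 and Capn8-204 tied for the highest mean share of Capn8 by TPM; Capn8-204 led by posterior mean TPM and Capn8-201 in replicate 2 alone. No paired analysis was possible because both libraries belong to 1 group. Ratios need both libraries, so none was left out for them. Depth limits Capn9 most, with 17 and 11 counts.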
